A study of Mus musculus with 20 samples.

Results

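The genes of de novo fatty acid synthesis were followed in the epididymal white adipose tissue (eWAT) of lean, obese and alkaloid-treated obese mice. They are 10 of the 14776 genes in the table, taken by name as the lipogenic enzymes and their transcription factors, and all 10 were measured in every mouse and passed the filter on low values. Male C57BL/6J mice aged 6 weeks were placed on normal chow (NC group, n = 6) or on a high-fat diet that drew 60% of its energy from fat. After 14 weeks the high-fat mice were gavaged for 6 more weeks with saline (HFD group, n = 7) or with SZ-A at 400 mg/kg a day (SZ-A group, n = 7) while the diet went on, so both obese groups ate the same feed. The paper's text gives a larger n for the chow group than the labels used here. SZ-A is the alkaloid fraction of Ramulus Mori (Sangzhi), the mulberry twig, and the mice were fasted overnight before the fat was taken. No gene was altered in these mice, and diet and treatment were given to whole animals, so the values describe whole fat pads with all the cells they hold.

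De novo lipogenesis turns surplus carbohydrate into fat. Citrate exported from mitochondria is split by ATP citrate lyase (Acly) into acetyl-CoA, acetyl-CoA carboxylase (Acaca in the cytosol, Acacb at the outer mitochondrial membrane) makes malonyl-CoA, and fatty acid synthase (Fasn) builds palmitate with NADPH, part of which comes from malic enzyme (Me1). Elovl6 lengthens palmitate to stearate, and the stearoyl-CoA desaturases Scd1 and Scd2 place the double bond that makes oleate and palmitoleate. Srebf1 encodes SREBP1, which answers to insulin, and Mlxipl encodes ChREBP, which answers to glucose; both switch on the enzymes. In fat, a fall of this program in obesity and during fasting is well known. RNA levels say nothing of the phosphorylation by which acetyl-CoA carboxylase is controlled.

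Acacb and Mlxipl are the members that passed the test in both comparisons with the HFD group, so stretches of 250 bases before start sites listed for them are shown here. The only Acacb window lies inside the gene, which begins at chr5:114146535 in the annotation, so it is not the stretch before the outermost start. The sequences are from RefSeq on GRCm38.p6, forward strand, 5′ to 3′. Capitals mark letters of the E-box CACGTG, the NF-Y box CCAAT or the GC box GGGCGG, on either strand; no letters of different motifs overlap here. Mlxipl has windows at 2 start sites, and the values per gene cannot tell the isoforms that begin at them apart; the same holds for the forms of Srebf1.
Acacb, chr5:114165268-114165517: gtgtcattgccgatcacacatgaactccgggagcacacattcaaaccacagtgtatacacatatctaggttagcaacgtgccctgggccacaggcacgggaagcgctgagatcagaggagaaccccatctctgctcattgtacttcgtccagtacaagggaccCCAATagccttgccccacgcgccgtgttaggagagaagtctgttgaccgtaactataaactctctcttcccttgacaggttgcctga
Mlxipl, upstream start, chr5:135089640-135089889: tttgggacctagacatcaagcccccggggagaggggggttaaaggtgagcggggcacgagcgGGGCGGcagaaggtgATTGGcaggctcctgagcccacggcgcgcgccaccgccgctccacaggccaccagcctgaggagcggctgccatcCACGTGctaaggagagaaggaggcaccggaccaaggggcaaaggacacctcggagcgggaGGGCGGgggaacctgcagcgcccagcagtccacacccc
Mlxipl, downstream start, chr5:135106641-135106890: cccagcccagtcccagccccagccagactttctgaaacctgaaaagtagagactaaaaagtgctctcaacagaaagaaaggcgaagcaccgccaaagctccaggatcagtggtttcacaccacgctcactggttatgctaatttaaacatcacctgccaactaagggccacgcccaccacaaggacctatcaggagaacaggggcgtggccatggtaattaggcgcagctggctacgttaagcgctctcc

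With the 50 bases after each start included, RefSeq windows were found for 8 of the 10 members, 12 windows in all; Scd1 and Scd2 were not matched. The E-box, a site that ChREBP and SREBP1 can bind, was spelled out in 1 of the 12 windows, that of the upstream start of Mlxipl, where it begins 98 bases before the start, and in 7.15% of all 32851 windows of that length. CCAAT occurred in 7 of the 12 windows, belonging to 6 members, against 37.4% of all windows. GGGCGG occurred in 5 of the 12 windows, against 35.7% of all. The sterol element core CACCCCAC was in none of the 12 and in 2.87% of all. The window at the downstream start of Mlxipl holds none of the 4 motifs. The only windows of Acaca and Acacb lie inside these genes, so the counts do not cover their outermost starts. A match of letters does not show that a factor was bound.

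The libraries differed in ways that touch these genes. All 15 listed adipocyte markers were in the table, and their mean log2 level lay between 7.66 and 9.30 in the SZ-A group and between 5.89 and 8.16 in the HFD group. In the NC group it ranged from 7.97 to 9.35 in mice 1 to 5 but was 4.25 in NC mouse 6, where Adipoq, the adiponectin gene, stood at 26.6 FPKM and Lep, the leptin gene, at 1.17 FPKM. The library labelled NC 6 thus goes against its tissue label. The members' values in HFD against NC, most of their correlations over all mice and the gene lists are given with and without it. Correlations within the NC group are given only with it. Of 18 markers listed for the epithelium of the epididymis, the duct beside this fat pad, 5 were in the table (Krt18, Krt19, Cdh1, Spint2 and Adgrg2). The others, among them Crisp1, Lcn5 and Gpx5, were not, so which epithelium this level stands for was not tested. The mean log2 level of the 5 was 1.05 to 1.71 in the HFD group, 2.66 to 7.67 in the NC group and 0.82 to 5.89 in the SZ-A group. Krt18, a keratin of simple epithelia, reached 10 FPKM in NC mice 1, 2, 4, 5 and 6 and in SZ-A mice 2, 3 and 7, and in no HFD mouse. The summed level of 18 macrophage markers was 100.1 to 931 FPKM in NC mice, 4125 to 10742 in HFD mice, and 1635 to 5738 in SZ-A mice. SZ-A mouse 5 had 11.6% of its reads on mitochondrial genes, against 1.67% to 8.34% in the other mice. Of 10 fibroblast and preadipocyte markers 7 were higher and 2 lower in HFD against NC and 8 lower in SZ-A against HFD, and of 8 smooth muscle markers 5 were lower in HFD against NC; their part in the members' values was not tested. Reads on the deposited genes numbered 13567667 to 19388628 per mouse, and every member had at least 29 reads in each mouse.

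Scd1 was the most abundant member per length of transcript and among the most variable. Its FPKM, reads scaled to transcript length and library size, was 159 at the lowest, 3802 at the median and 5951 at the highest in the NC group, 461, 1404 and 2940 in the HFD group, and 821, 2805 and 8552 in the SZ-A group. The lowest of all was NC mouse 6 and the highest SZ-A mouse 4, and the 3 groups overlapped. Scd2 ran much lower, at 5.47, 72.3 and 294 FPKM in NC mice, 16.2, 26.3 and 52.2 in HFD mice, and 2.25, 24.7 and 165 in SZ-A mice. NC mouse 6, the lowest of all mice for Scd1, was the highest of all for Scd2, while the lowest Scd2 value was that of SZ-A mouse 5.

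**Figure D1:**
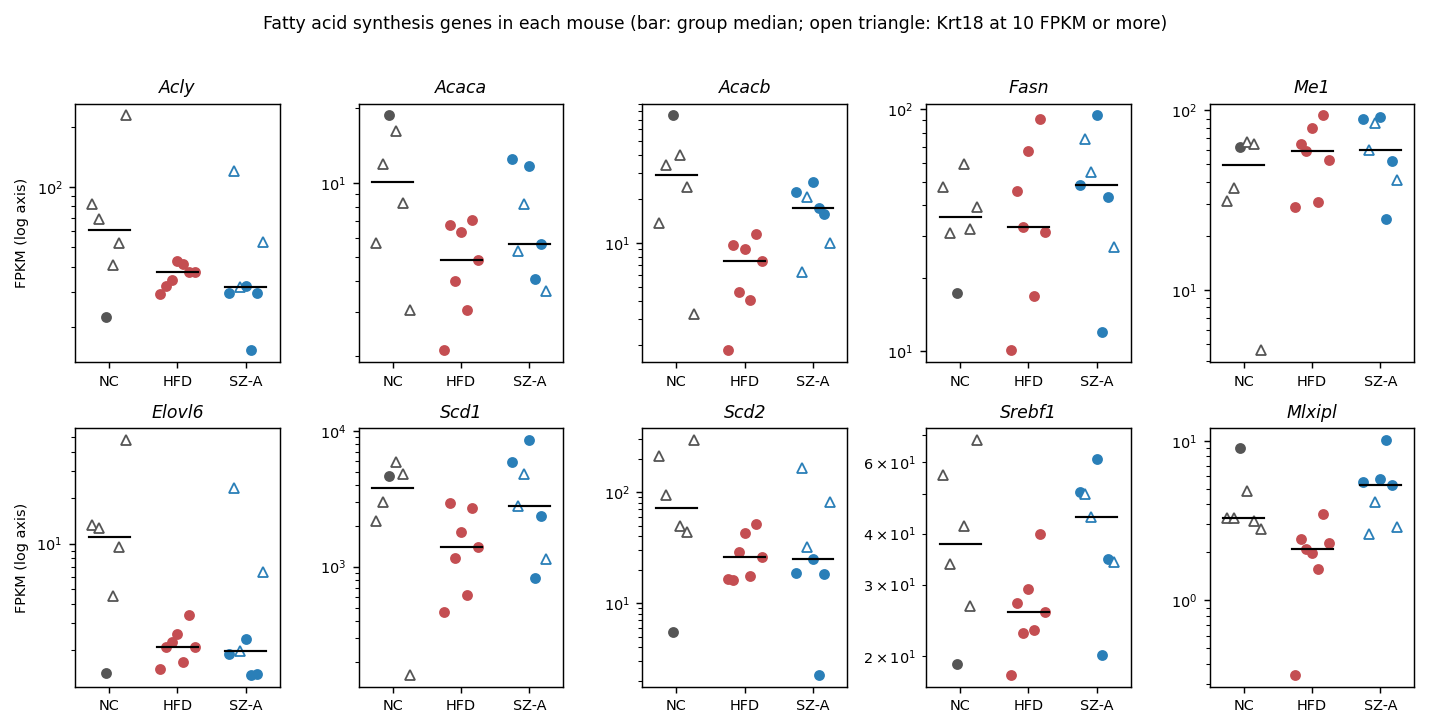
FPKM of each member in every mouse on a log axis, by group, with a bar at the group median; open triangles are mice with Krt18 at 10 FPKM or more. The medians of Acacb and Mlxipl are lowest in the HFD group, at 7.56 and 2.09 FPKM, as are those of Acaca, Fasn, Scd1 and Srebf1. The highest values of Elovl6, Acly and Scd2 are open triangles.

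Among the enzymes that make the precursors, Acly stood at 22.4, 60.9 and 227 FPKM (lowest, median, highest) in NC mice, 29.3, 37.5 and 43.0 in HFD mice, and 15.3, 31.6 and 121 in SZ-A mice. The HFD values were the tightest, with an SD of 4.86 FPKM around a mean of 36.5 (n = 7), against 74.0 around 82.5 in NC (n = 6) and 35.3 around 44.5 in SZ-A mice (n = 7). Me1 ranged from 4.62 to 66.5 FPKM in NC mice with a median of 49.8, from 28.8 to 93.7 in HFD mice with a median of 59.2, and from 24.7 to 91.8 in SZ-A with a median of 60.3. Me1 was thus the member whose median in chow mice lay below that of both obese groups, though all 3 groups overlapped.

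The carboxylases split. Acaca, the lipogenic form, gave 3.07, 10.1 and 18.7 FPKM in NC mice, 2.10, 4.88 and 7.04 in HFD mice, and 3.66, 5.68 and 12.5 in SZ-A mice. Acacb, the form tied to control of fatty acid oxidation, gave 3.23, 29.2 and 74.8 FPKM in NC mice, 1.83, 7.56 and 11.4 in HFD mice, and 6.29, 17.4 and 26.3 in SZ-A mice. Leaving NC mouse 6 aside, every chow mouse was above every HFD mouse for Acacb, and 5 of the 7 SZ-A mice were above the highest HFD mouse. NC mouse 6, at 3.23 FPKM, lay within the HFD range, and how common such separation is among all genes was not counted.

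Fasn was broadly spread within each group, at 17.4, 35.7 and 59.1 FPKM in NC mice, 10.1, 32.5 and 91.5 in HFD mice, and 12.0, 48.5 and 94.3 in SZ-A mice. Elovl6 was low in most obese mice, at 1.42, 11.1 and 47.8 FPKM in NC mice, 1.51, 2.10 and 3.42 in HFD mice, and 1.37, 1.97 and 23.2 in SZ-A mice. The 2 highest SZ-A values for Elovl6, in mice 2 and 7, were in mice with high Krt18, and the chow mouse without it, NC mouse 3, had the group's lowest value. SZ-A mouse 3, which also reached 10 FPKM of Krt18, was at 1.97 FPKM for Elovl6, the median of its group.

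Of the transcription factors, Srebf1 was expressed at 19.2, 37.7 and 67.8 FPKM in NC mice, 18.0, 25.7 and 40.0 in HFD mice, and 20.2, 43.9 and 61.0 in SZ-A mice. Mlxipl was the lower of the pair, at 2.81, 3.29 and 9.09 FPKM in NC mice, 0.34, 2.09 and 3.50 in HFD mice, and 2.62, 5.27 and 10.1 in SZ-A mice. HFD mouse 1 was lowest of its group for 9 of the 10 members, the exception being Scd2, and it also had the lowest adipocyte marker level of that group.

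How the members moved together within a group differed from group to group. For each gene the deviation of every mouse from its group mean of log2(FPKM + 1) was taken, and these were correlated over the 20 mice, which share the same libraries and dissections, as a description. Scd1 and Me1 went together (Pearson's r = 0.97, Spearman's rho = 0.92), as did Acaca and Acacb (r = 0.90, rho = 0.92), and the pairs among these 4 had r between 0.81 and 0.97, or 0.62 and 0.94 without NC mouse 6. Acly, Elovl6 and Scd2 were another set, with r = 0.96 between Acly and Elovl6, 0.91 between Acly and Scd2 and 0.87 between Elovl6 and Scd2, and 0.86 to 0.94 without that mouse. Across the sets, the 12 pairs had r from -0.75 (Acly and Acacb) to -0.19 (Me1 and Scd2) over 20 mice. Without NC mouse 6 they ran from -0.58 to 0.14, with 3 of the 12 above 0. Within the NC group the 12 pairs lay between -0.97 and -0.66, and within the SZ-A group between -0.88 and 0.39, with 5 above 0. The NC values include NC mouse 6 and were not computed without it, so how far they rest on that mouse was not tested. Within the HFD group they lay between 0.22 and 0.93, and all 45 pairs of members were positive there. Srebf1 went with Fasn (r = 0.80, and 0.87 without NC mouse 6) and Scd2 (0.76 and 0.72), while Mlxipl went with Acacb (0.73 and 0.81) and had r = -0.22 with Srebf1 (-0.15 without that mouse). The grouping was noticed after the values were seen.

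**Figure D2:**
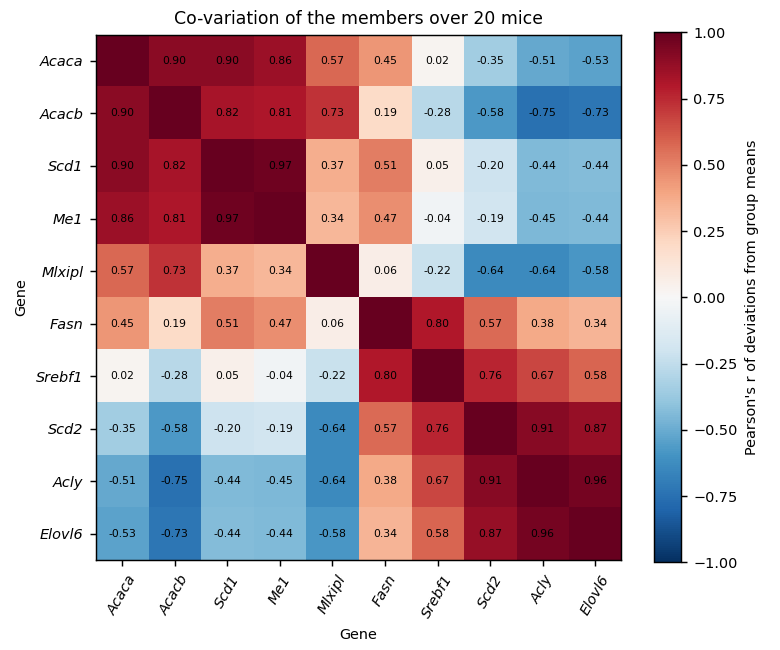
Pearson's r between the members' deviations from their group means over 20 mice; both axes list the 10 genes, and color runs from -1 to 1. Acaca, Acacb, Scd1 and Me1 form a block of high r (0.97 between Scd1 and Me1), Acly, Elovl6 and Scd2 another (0.96 between Acly and Elovl6), and pairs across the 2 blocks run from -0.75 to -0.19.

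The marker levels moved with the members in ways that also differed between groups. Deviations of Scd1, Me1, Acacb and Acaca followed those of the adipocyte marker level with r of 0.93, 0.93, 0.93 and 0.87, and still 0.86, 0.83, 0.87 and 0.88 without HFD mouse 1 and NC mouse 6, the mice farthest from the median marker level. Elovl6, Acly and Scd2 followed the epithelium markers with r of 0.89, 0.87 and 0.87, and 0.88, 0.86 and 0.85 without NC mice 2 and 6. Against the adipocyte level these 3 had r of -0.85, -0.90 and -0.67 within the NC group, -0.64, -0.50 and -0.37 within the SZ-A group, but 0.84, 0.45 and 0.65 within the HFD group, where the r of the other 7 members was 0.86 to 0.98. Against the epithelium level, Elovl6, Acly and Scd2 had r of 0.98, 0.97 and 0.96 in NC mice, 0.87, 0.85 and 0.85 in SZ-A mice, and 0.51, 0.32 and 0.59 in HFD mice. The r within the NC group includes NC mouse 6, which is extreme on both marker levels, and was not computed without it. All 10 members were thus positive with both marker levels in HFD mice, whose epithelium level spans the narrowest range. In the 8 mice with Krt18 at 10 FPKM or more, Elovl6 had a lowest value of 1.97 FPKM (SZ-A mouse 3), a median of 11.1 and a highest value of 47.8. In the other 12 mice the median was 1.99 and the highest 3.42. For Scd2 the medians were 88.4 and 18.4 FPKM, and for Acly 61.2 and 32.1. The lowest values in the 8 mice, 32.0 for Scd2 and 31.6 for Acly, lay below the highest in the other 12, 52.2 and 43.0. Srebf1 was inverse to the macrophage markers (r = -0.87, also without NC mouse 6), as were Acly (-0.82), Scd2 (-0.81), Elovl6 (-0.77) and Fasn (-0.58). The remaining members had r of 0.19 to 0.48, and of -0.49 to 0.31 without that mouse. Within the HFD group all 10 members were inverse to the macrophage markers, with r from -0.98 to -0.48. The part of epithelium, adipocyte or macrophage RNA in the members' values was not tested directly. In whole tissue, fewer cells of a type and less RNA per cell cannot be told apart.

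**Figure D3:**
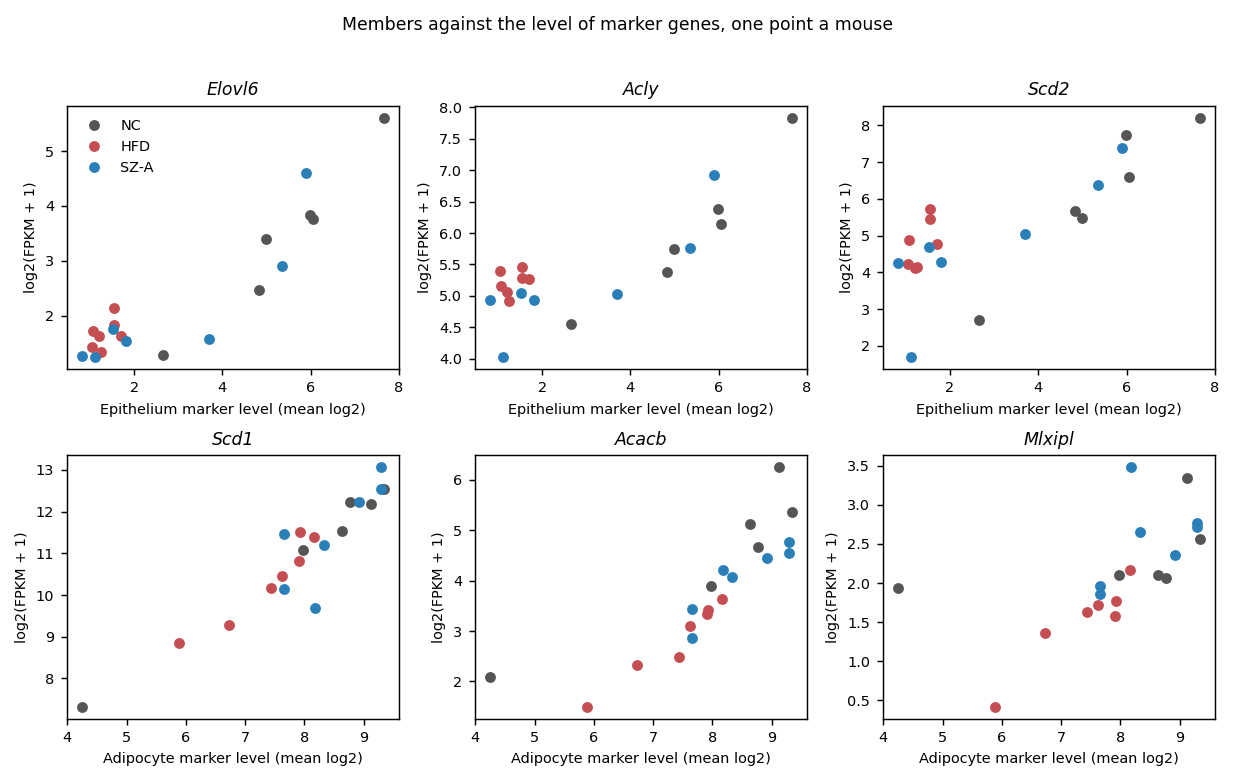
Level of 6 members, as log2(FPKM + 1), against the mean log2 level of 5 epithelium markers (upper row) or 15 adipocyte markers (lower row); each point is a mouse, colored by group. Elovl6, Acly and Scd2 are highest in NC mouse 6, where the epithelium level is 7.67, and Scd1 is lowest there, where the adipocyte level is 4.25.

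Over the 14700 other genes ranked, those whose deviations were most like the mean of the 10 members were Chdh (r = 0.97), Acss2 (0.95), Pm20d1 (0.92), Mpp7 (0.92) and Hacd2 (0.92), over 20 mice; without NC mouse 6 their r was 0.92 to 0.98 and their ranks 1 to 12. Acss2 makes acetyl-CoA from acetate, and Hacd2 is a dehydratase of the fatty acid elongation cycle. The least alike were Lamtor3 (r = -0.91) and Atp6v1b2 (-0.91), a lysosomal scaffold component and a subunit of the lysosomal proton pump. For Elovl6 alone, chosen after the values were seen, the nearest genes were Myo5b, Klhl23, Nhsl1, Hoxb7 and Hook1, with r from 0.97 to 0.98 (0.96 to 0.98 without NC mouse 6).

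The effect of the high-fat diet was assessed by comparing the HFD and NC groups. Acacb, Elovl6 and Mlxipl were significantly lower in the HFD group and no member was higher. Acacb fell by 1.73 on the log2 scale of FPKM + 1 (SE 0.57, limma adjusted p = 0.0256), from a mean of 31.7 ± 25.0 FPKM (SD, n = 6) to 6.89 ± 3.47 (n = 7). Elovl6 fell by 1.72 (SE 0.51, limma adjusted p = 0.015), from 14.9 ± 16.8 to 2.23 ± 0.629 FPKM. Mlxipl fell by 0.83 (SE 0.28, limma adjusted p = 0.0287), from 4.42 ± 2.40 to 2.03 ± 0.954 FPKM. These 3 of 10 stand against a background in which 20.1% of all 14706 genes tested were lower and 21.0% higher. The study adds a limit on size that it words both on the log2 scale and as a linear fold. Acacb and Elovl6 also passed 1.5 on the log2 scale, as did 7.97% of all genes, and all 3 passed a linear fold of 1.5, as did 27.8%. Groups overlapped for each member, and 4 members had an unadjusted p under 0.05, all of them lower.

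The other 7 members did not pass. Acaca had a log2 fold change of -0.87 (95% confidence interval -1.63 to -0.10, limma adjusted p = 0.0656), Scd2 -1.30 (-2.83 to 0.23), Acly -0.79 (-1.62 to 0.05), Scd1 -0.79 (-2.48 to 0.89) and Srebf1 -0.52 (-1.09 to 0.06). Fasn was at -0.06 (-1.02 to 0.91) and Me1 at 0.64 (-0.48 to 1.77). The median over the 10 members was -0.81 and over all genes tested -0.04.

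NC mouse 6 decided much of this. Without it 5 members were lower: Acacb at -2.22 (limma adjusted p = 8.0e-04), Acaca at -1.13 (0.00772), Scd1 at -1.56 (0.018), Elovl6 at -1.28 (0.0131) and Mlxipl at -0.91 (0.0196), where 22.6% of 14697 genes were lower and 22.6% higher. Me1 then moved from 0.64 to 0.11, Acly from -0.79 to -0.42, Scd2 from -1.30 to -0.87, Srebf1 from -0.52 to -0.35 and Fasn from -0.06 to -0.02, none of them past the threshold. Without NC mouse 4 only Elovl6 remained called. The call on Acacb was lost on leaving out NC mouse 2, 3 or 4 or HFD mouse 1 (log2 fold changes of -1.61 to -1.39, limma adjusted p of 0.0511 to 0.0549), and that on Mlxipl without NC mouse 3 or 4 or HFD mouse 5 (-0.80 to -0.63, limma adjusted p of 0.052 to 0.0545). Without NC mouse 3, Scd2 passed at -1.97 (limma adjusted p = 0.00571), Acly at -1.08 (0.0187) and Srebf1 at -0.70 (0.0297).

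Elovl6, Acly and Scd2 turned with the epithelium marker level. With it as a covariate, chosen after seeing the data, Elovl6 had a log2 fold change of 1.68 (limma adjusted p = 0.00531), Acly 1.75 (0.00313) and Scd2 3.35 (0.00322), all higher in the HFD group, while Acacb was at -4.57 (0.00411), Acaca at -2.48 (0.0128), Mlxipl at -1.86 (0.0237) and Scd1 at -4.12 (0.0496). Since the marker level did not overlap between HFD and NC mice, diet and epithelial content cannot be told apart for these genes in this comparison. All 5 epithelium markers tested were lower in the HFD group and 17 of 18 macrophage markers were higher. With the adipocyte level as covariate Acacb, Elovl6, Mlxipl and Acaca were lower, at -1.26, -2.03, -0.68 and -0.59, Acly was the fifth at -1.05 (limma adjusted p = 0.00441), and Me1 was higher at 1.10 (2.15e-05).

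**Figure D4:**
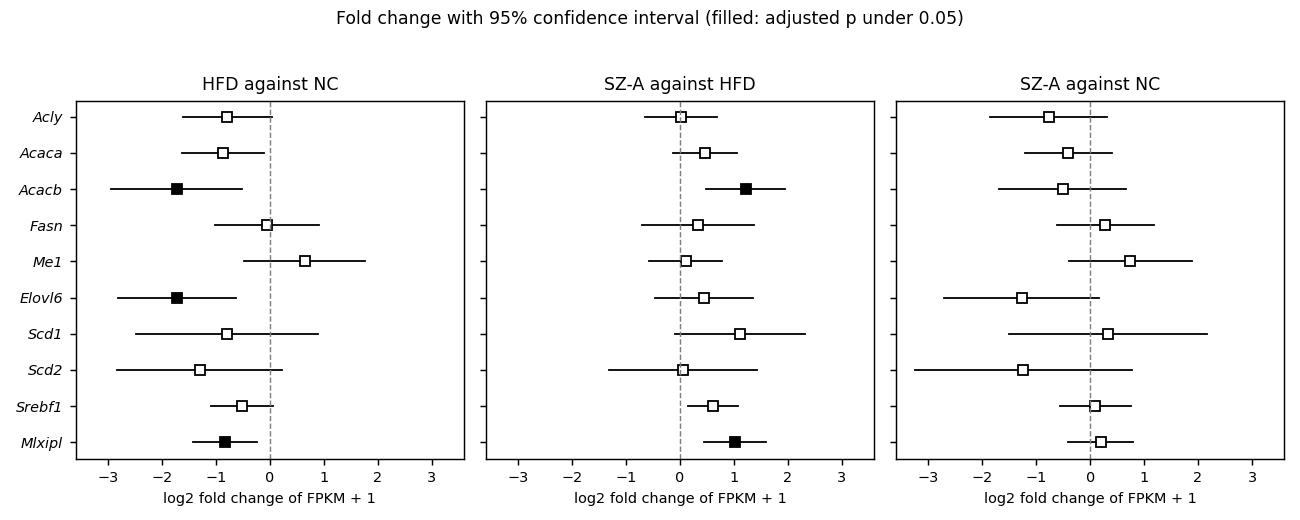
log2 fold change of FPKM + 1 for each member in the 3 comparisons, with its 95% confidence interval; filled squares have a limma adjusted p under 0.05. Acacb and Mlxipl are filled on the left side for HFD against NC, at -1.73 and -0.83, and on the right side for SZ-A against HFD, at 1.22 and 1.02.

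The effect of SZ-A on the obese mice was assessed by comparing the SZ-A and HFD groups. Acacb and Mlxipl were significantly higher in the SZ-A group and no member was lower. Acacb had a log2 fold change of 1.22 (SE 0.35, limma adjusted p = 0.0208), with means of 17.0 ± 7.01 FPKM in SZ-A and 6.89 ± 3.47 in HFD mice (n = 7 each). Mlxipl had a log2 fold change of 1.02 (SE 0.27, limma adjusted p = 0.0144), with means of 5.20 ± 2.52 and 2.03 ± 0.954 FPKM. These are 2 of 10, where 9.47% of 14695 genes tested were higher and 13.3% lower. Neither passed a limit of 1.5 on the log2 scale, which 0.864% of all genes did, and both passed a linear fold of 1.5, as did 12.5%. This comparison and the previous share the HFD mice, so the 2 sets of values are not independent.

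Srebf1 came near the threshold at 0.61 (95% confidence interval 0.14 to 1.07, limma adjusted p = 0.0577), and passed it at 0.76 (limma adjusted p = 0.00604) without SZ-A mouse 5. Scd1 had 1.12 (-0.09 to 2.33), Acaca 0.46 (-0.13 to 1.05), Elovl6 0.45 (-0.46 to 1.36) and Fasn 0.34 (-0.70 to 1.37). Me1 was at 0.10 (-0.58 to 0.79), Scd2 at 0.06 (-1.31 to 1.43) and Acly at 0.02 (-0.66 to 0.69). An unadjusted p under 0.05 was reached by 3 members, Acacb, Mlxipl and Srebf1, all higher. The members' median was 0.45 and that of all genes 0.03.

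The calls on Acacb and Mlxipl held on leaving out each mouse in turn, with log2 fold changes of 0.997 to 1.42 and 0.83 to 1.13. With all 3 groups in the fit Mlxipl kept its call and Acacb did not (limma adjusted p = 0.102). Among mice with Krt18 under 10 FPKM, 4 SZ-A and 7 HFD mice, Acacb was at 1.57 (limma adjusted p = 0.0136) and Mlxipl at 1.38 (0.00912), whereas Elovl6, Acly and Scd2 had values of -0.23, -0.48 and -1.02, none past the threshold. That cut left out SZ-A mice 2, 3 and 7, the lowest of their group for Mlxipl and the highest for Scd2. SZ-A mice 2 and 7 were also the lowest of their group for Acacb, at 6.29 and 9.90 FPKM, while SZ-A mouse 3 stood at 20.7 FPKM. The log2 fold changes among mice with Krt18 under 10 FPKM, that of Acacb included, therefore depend in part on the cut. With the adipocyte marker level as covariate no member passed: Acacb was at 0.24 (limma adjusted p = 0.347) and Mlxipl at 0.47 (0.242). Of the adipocyte markers 3 of 15 were higher in the SZ-A group, with a median log2 fold change of 0.99, and 15 of 18 macrophage markers were lower.

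Treated obese mice were then set against chow mice. No member passed in SZ-A against NC by limma, and none had an unadjusted p under 0.05; of 14718 genes tested 4.15% were higher, 0.455% lower, 1.79% past 1.5 on the log2 scale and 4.24% past a linear fold of 1.5. The intervals were wide. Acacb had a log2 fold change of -0.51 (95% confidence interval -1.69 to 0.67), Mlxipl 0.19 (-0.42 to 0.80), Elovl6 -1.27 (-2.71 to 0.17), Scd2 -1.24 (-3.25 to 0.77) and Scd1 0.33 (-1.51 to 2.16). Mlxipl turned to -0.05 and Scd1 to -0.14 when NC mouse 6 and SZ-A mouse 5 were dropped together. The median of the 10 members was -0.16. A missed threshold does not show that the groups were alike.

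The 2 carboxylases were compared within each mouse by the ratio of their FPKM, which does not depend on library size. Acacb exceeded Acaca in all mice but HFD mouse 1, where the ratio was 0.872. The log2 ratio was 1.28 ± 0.648 in NC mice (n = 6), 0.40 ± 0.308 in HFD mice (n = 7), and 1.23 ± 0.575 in SZ-A mice (n = 7). It was lower in HFD than in NC by a difference of -0.89 (two-sided exact permutation p = 0.0105, adjusted over the 6 ratio comparisons p = 0.0315) and it was higher in SZ-A than in HFD, with a difference of 0.83 (exact permutation p = 0.00699, adjusted p = 0.0315). Neither passed when medians were compared (exact permutation adjusted p = 0.152 for each), and the difference from NC was lost without any one of NC mice 1 to 5 (adjusted p of 0.053 to 0.0644). The HFD mice lay between -0.20 and 0.70, below 5 of 6 NC mice and 6 of 7 SZ-A mice, with NC mouse 6 at 0.07 and SZ-A mouse 2 at 0.25. Between SZ-A and NC the difference was -0.05 (exact permutation p = 0.876). Transcripts of the 2 genes shared no stretch of 50 bases, so reads of that length could not be swapped between them.

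**Figure D5:**
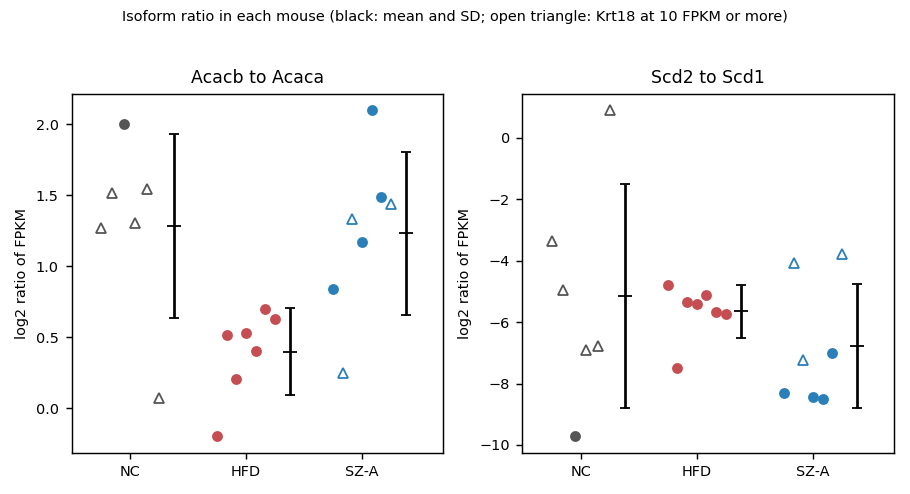
log2 ratio of FPKM within each mouse for Acacb to Acaca (left) and Scd2 to Scd1 (right), by group, with mean and SD in black; open triangles are mice with Krt18 at 10 FPKM or more. The carboxylase ratio averages 0.40 in HFD against 1.28 in NC and 1.23 in SZ-A mice, and the desaturase ratio is highest, at 0.89, in NC mouse 6.

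The desaturase ratio did not separate the groups. The log2 ratio of Scd2 to Scd1 was -5.14 ± 3.64 in NC mice, -5.66 ± 0.876 in HFD mice, and -6.77 ± 2.02 in SZ-A mice, and none of the 3 differences passed (exact permutation p of 0.734, 0.201 and 0.341, adjusted p of 0.876, 0.402 and 0.511). Scd2 exceeded Scd1 in NC mouse 6 alone, by a ratio of 1.85. Without that mouse the HFD to NC difference turned from -0.51 to 0.69 (exact permutation p = 0.5). Among mice with Krt18 under 10 FPKM the SZ-A to HFD difference was -2.42 (exact permutation p = 0.00606, adjusted p = 0.0182), a subset chosen after seeing the data. The cut left out no HFD mouse but SZ-A mice 2, 3 and 7, which had the highest Scd2 values of their group. The p-values do not allow for that choice, so no conclusion is drawn from them. Transcripts of Scd1 and Scd2 share 145 stretches of 50 bases, 2.97% of those of Scd1, and how reads from them were counted is not given in the sources used here. Scd1 stood at up to 845 times the FPKM of Scd2 in a mouse, so a small share of its reads could make up much of the Scd2 value where Scd2 is low.

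The other genes of the pathway are given by list. In these lists, a change with the diet means HFD against NC and a change with SZ-A means SZ-A against HFD, in whole tissue. The part of cell content in these values was not tested. Their counts are to be read beside the 21.0% of genes higher and 20.1% lower in HFD against NC and the 9.47% and 13.3% in SZ-A against HFD, and no list was tested against the members or against other genes. Of 13 genes of acetyl-CoA and citrate supply, 1 was higher and 2 lower in HFD against NC, with Acss1, a mitochondrial acetyl-CoA synthetase, at 0.87 (limma adjusted p = 0.0182), cytosolic aconitase Aco1 at -0.70 (0.00242) and malate dehydrogenase Mdh1 at -0.61 (0.0142). None of the 13 passed in SZ-A against HFD by limma, and 0 had an unadjusted p under 0.05 there; Acss1 had -0.39, Slc16a3, a lactate carrier, -0.42 and Mdh1 0.31. Of 13 NADPH suppliers, 4 were higher and 1 lower in HFD against NC. Pgd (1.24, limma adjusted p = 1.98e-04) and G6pdx (0.66, 0.0106) are of the pentose phosphate pathway, and Me2 (0.88, 0.0146) is a mitochondrial malic enzyme. In SZ-A against HFD 2 were lower, isocitrate dehydrogenase Idh1 at -0.57 (0.00392) and Me2 at -0.47 (0.0302), while Rpia had 0.22 and did not pass. Pgd was still higher in SZ-A than in NC mice at 0.94 (0.00387), the single NADPH gene called there.

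Of 13 elongases and desaturases outside the members, 2 were higher and 4 lower in HFD against NC. Fads2, the delta-6 desaturase of polyunsaturated fatty acids, fell by 3.90 on the log2 scale (limma adjusted p = 2.84e-04), Fads1 fell by 1.77 (5.13e-04), and Elovl1, which extends very long saturated chains, rose by 1.16 (2.69e-05). In SZ-A against HFD 2 were lower, Hacd4 at -1.01 (0.00177) and Elovl1 at -0.59 (0.0348), and Fads6 had -0.52 (0.0575).

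Among 13 regulators of the carboxylases and cofactors of lipogenesis, 2 were higher and 3 lower in HFD against NC, and 3 higher and 1 lower in SZ-A against HFD. Thrsp (Spot 14), a lipogenic cofactor, rose by 1.49 with SZ-A (limma adjusted p = 0.0224), from 40.7 to 117 FPKM. Prkag2, an AMPK subunit, rose by 0.42 (0.0335). Prkaa2, the alpha-2 catalytic subunit of AMPK, fell by 0.72 with the diet (0.0183), Hlcs, which attaches biotin to carboxylases, rose by 0.34 (0.0342), and Brca1 rose by 1.35 with the diet (2.55e-07) and fell by 0.76 with SZ-A (0.00615). Of 19 partners and upstream regulators of Srebf1 and Mlxipl, 3 were higher and 1 lower in HFD against NC and 4 lower in SZ-A against HFD. The kinase Akt1 was at 0.89 (3.15e-04) and then -0.56 (0.0095), the SREBP protease Mbtps2 at 0.51 (0.0149) and then -0.46 (0.0206), and Scap, the SREBP escort protein, at -0.55 with the diet (0.0297). Mlx, the dimer partner of ChREBP, was lower with SZ-A at -0.46 (limma adjusted p = 0.0191), while Mlxipl itself was higher.

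Of 16 genes of glucose entry and glycolysis, 5 were higher and 3 lower in HFD against NC, and 2 higher and 3 lower in SZ-A against HFD. Hexokinase Hk2 fell by 1.54 with the diet (limma adjusted p = 4.99e-04) and rose by 0.87 with SZ-A (0.022), Pfkp, the platelet form of phosphofructokinase, was at 1.32 (0.00187) and then -0.49 (0.014), enolase Eno1 was at 0.91 with the diet (2.73e-04) and at 0.89 in SZ-A against NC (0.0117), and the insulin receptor Insr was at 0.55 with SZ-A (0.0229). Of 15 triglyceride synthesis genes, 2 were higher and 4 lower with the diet and 2 higher and 1 lower with SZ-A. The acyl-CoA synthetases Acsl5, Acsl4 and Acsl1 were at 0.72, -1.29 and -1.18 with the diet (limma adjusted p of 7.90e-04, 0.00454 and 0.0116). Pck1, which makes glycerol backbone, was at 1.62 with SZ-A (0.0179), Dgat1, which adds the last acyl chain, at 0.78 (0.0366) and Lpin2, a phosphatidate phosphatase, at -0.39 (0.0458). Of 22 cholesterol synthesis genes, 2 were higher and 4 lower with the diet and 2 higher and 1 lower with SZ-A; squalene synthase Fdft1 was at -1.68 and then 1.004, Acat2 at -2.14 and then 1.10, and Dhcr7 at 1.15 and then -0.56 (limma adjusted p of 4.88e-04 to 0.00188 with the diet and 0.00135 to 0.0351 with SZ-A). In SZ-A against NC, Pgd and Eno1 were the only genes of these 8 lists that passed. Without NC mouse 6 the genes higher and lower in HFD against NC numbered 1 and 3 in acetyl-CoA and citrate supply, 3 and 3 in NADPH supply, 2 and 5 in elongases and desaturases, 1 and 4 in carboxylase regulators, 5 and 4 in partners of Srebf1 and Mlxipl, 5 and 3 in glycolysis, 2 and 7 in triglyceride synthesis, and 3 and 4 in cholesterol synthesis. Of the genes named above as called with the diet, Hlcs and Scap then missed the threshold (limma adjusted p = 0.06 and 0.0514).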

How the data were processed

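Poly(A) RNA of 20 fat pads was sequenced; per the paper's methods the authors aligned reads to GRCm38 with HISAT2, and the submitters' processing notes name featureCounts 1.5.0-p3. The deposited values are FPKM of 14776 genes, all above 0; which annotation and gene filter produced them is not given in the sources used here. Symbols, lengths and reads were taken from GENCODE on GRCm38 (14770 genes matched); 95.9% to 96.3% of checked values came out as whole reads within 0.01. After genes averaging under 0.1 FPKM were set aside, log2(FPKM + 1) went into limma 3.58.1 (R 4.3.3) with a variance trend, with only the 2 groups compared, and genes were called at a Benjamini-Hochberg adjusted p under 0.05 over all genes. Ratios were tested by exact permutation. On simulated data with log2 fold changes of 1, limma called 121 (HFD against NC), 141 (SZ-A against HFD) and 96 (SZ-A against NC) of 200 changed genes. The changed genes were drawn from those above 5 FPKM on average in the group named second. Noise was normal, independent between genes and of the same SD in both groups. The counts therefore do not cover genes below that level, such as Mlxipl, or groups of unequal SD such as NC and HFD. Unchanged genes called numbered 7, 12 and 5 in the same order of comparisons. Members, lists and markers were chosen with earlier results of these data known. All 10 members are described; from each list the 3 smallest adjusted p in each of the 2 comparisons with HFD are named, and for likeness the 5 highest and 2 lowest r. Replicates are separate mice. Alternatives tried were other pseudocounts (0.1 and 0.01), filters, scalings, array weights, marker covariates, recovered reads with voom, and each mouse left out; those on epithelium markers, Krt18, the linear fold, the lists and correlations without NC mouse 6 and the removal of 2 mice were chosen after seeing the data.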

Additional observations from a re-analysis of the deposited data

Results flagged for a closer look

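In 36 sets of values, 10 genes and 2 ratios in 3 groups, the gap between the most extreme mouse and the next, divided by the range of the group, was unusually large in 3; chance gives about 1 in 20. In the NC group, mouse 6 was far below the others for Scd1 (gap over range 0.719; 159 FPKM against 2156 to 5951) and for Me1 (0.705; 4.62 FPKM against 31.4 to 66.5). In the HFD group, mouse 2 had a log2 ratio of Scd2 to Scd1 of -7.50, with the others at -5.74 to -4.79 (gap over range 0.651).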

How the results depend on the processing

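Depth limited Mlxipl most, with 29 reads in its lowest mouse, and the 2 covariates correct for levels that themselves differ between groups. Pseudocounts of 0.1 and 0.01, the filter changes, protein-coding genes only, median-ratio scaling and robust variance kept the direction and the call of every member, as did voom on recovered reads apart from the sign of 2 values near 0 in SZ-A against HFD (Acly -4.5e-04, Scd2 -0.026). Quantile normalization added Acaca to the members lower in HFD against NC. Members lower there numbered 5 with array weights, with the adipocyte covariate and without NC mouse 6 and SZ-A mouse 5, and 1 to 5 with a mouse left out; members higher numbered 1 with the adipocyte and 3 with the epithelium covariate. Members higher in SZ-A against HFD numbered 5 with array weights, 1 with all groups in the fit, where Acacb lost its call, and 0 with the adipocyte covariate or a limit of 1.5 on the log2 scale; a linear fold of 1.5 changed no member's call. With the adipocyte covariate 1 member, Acacb, was lower in SZ-A against NC. The share of all genes called was counted only for the main fit, the size limits and the fit without NC mouse 6. Member counts under the other settings are therefore not results about the members.

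Directions turned with the covariates, with some other settings and with single mice left out. In HFD against NC the epithelium covariate gave Acly 1.75, Elovl6 1.68, Scd2 3.35, Srebf1 0.92, Fasn 0.97 and Me1 -1.82, and Fasn was 0.033 with array weights and 0.057 with the adipocyte covariate. In SZ-A against HFD the adipocyte covariate gave Acaca -0.31, Fasn -0.70, Me1 -0.68 and Scd1 -0.29, the epithelium covariate Acly -0.54, Elovl6 -0.34 and Scd2 -1.09, Krt18 under 10 FPKM Acly -0.48, Elovl6 -0.23 and Scd2 -1.02, and array weights Acly -0.17 and Scd2 -0.11. In SZ-A against NC the epithelium covariate gave Acly 0.37, Elovl6 0.29, Scd2 0.92, Scd1 -0.59 and Mlxipl -0.43, the adipocyte covariate Scd1 -0.17, and dropping NC mouse 6 and SZ-A mouse 5 Scd1 -0.14 and Mlxipl -0.049. With a mouse left out, Fasn ranged from -0.29 to 0.22 in HFD against NC, Acly from -0.27 to 0.22, Me1 from -0.047 to 0.30 and Scd2 from -0.37 to 0.58 in SZ-A against HFD, and Scd1 from -0.44 to 0.63 and Srebf1 from -0.10 to 0.26 in SZ-A against NC.

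The difference in log2 ratio of Acacb to Acaca no longer passed with medians (-0.89 and 0.82, adjusted p of 0.152 each) and, with a mouse left out, ranged from -1.13 to -0.74 in HFD against NC, 0.69 to 0.996 in SZ-A against HFD and -0.30 to 0.11 in SZ-A against NC. It missed the threshold in HFD against NC without NC mouse 1, 2, 3, 4 or 5 (adjusted p of 0.053 to 0.0644). The difference for Scd2 to Scd1 in HFD against NC turned to 0.48 with medians and 0.69 without the 2 mice, ranged from -1.43 to 0.69 with a mouse left out, and in SZ-A against HFD was -2.42 with Krt18 under 10 FPKM. The cause was not tested.

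Replicate numbers did not pair the mice: in HFD against NC 2 of 6 same-numbered pairs deviated together with a correlation over 0.1, in SZ-A against HFD 3 of 7 and in SZ-A against NC 2 of 6, and each mouse correlated best with its own number in 1, 2 and 1 cases. With the replicate block, 2 members were lower in HFD against NC and 1 was higher in SZ-A against HFD, and the log2 ratio of Acacb to Acaca differed by -0.92 and 0.83 (exact sign-flip adjusted p of 0.188 each).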
